A study of Mus musculus with 2 samples.

Results

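The neighbourhoods of 5 core pluripotency genes, Pou5f1, Nanog, Sox2, Klf4 and Esrrb, were examined in mouse embryonic stem (ES) cells in a ChIP-seq library labelled H2ABbd and a MeDIP library labelled 5mC. The members are 1 kb bins in windows set by position alone (mm9, 1-based), with no measured value used. The windows were chr17:35600001-35700000 (Pou5f1), chr6:122610001-122710000 (Nanog), chr3:34500001-34600000 (Sox2), chr4:55490001-55590000 (Klf4) and chr12:87700001-87870000 (Esrrb). They hold 570 bins, of which 560 are among the 2299806 bins of the genome with a read in either library and 10 are empty in both. Each window was set against its flanks of 500 kb on each side, and Esrrb also against chromosome 12 from 80 to 114.5 Mb.

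Both libraries came from mouse ES cells kept on the cytokine LIF with no feeder layer, and the labels name no strain, line or genotype. For the first, formaldehyde-crosslinked chromatin sheared to 200 to 400 bp was precipitated with a home-made rabbit antibody against mouse H2ABbd. For the second, genomic DNA sheared to 100 to 400 bp was adaptor-ligated, denatured and precipitated with a mouse monoclonal antibody (clone 33D3) against 5-methylcytosine. There was 1 library per group and no input library was analysed here, so the values carry no replicate check, no test between conditions was made, and intervals (95%) cover counting error alone. The name of each deposited file carries the antibody of the other sample. Groups follow the sample labels, and every direction given here rests on them. DNA reads carry no expression level, so the cell type label could not be held against marker genes.

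Pluripotent cells are held in their state by a small set of transcription factors that bind their own and each other's control regions. Pou5f1 (Oct4) is a POU-domain factor that pairs on DNA with the HMG-box factor Sox2. Nanog is a homeodomain factor, Klf4 a zinc-finger factor that responds to LIF signalling, and Esrrb an orphan nuclear receptor that stands downstream of several of them. H2ABbd is an H2A variant with a shortened C-terminal part whose nucleosomes hold DNA less tightly than canonical ones. Cytosine methylation in mammals sits mainly on CpG dinucleotides, which MeDIP recovers the better the more methylated CpGs a fragment holds.

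The promoters of these genes differ in how many CpGs they offer. The 250 bases before the annotated start of 3 of the genes are shown, 5′ to 3′ on the gene's strand, because they span the range of the 5, with each CpG in capitals. They are RefSeq sequences on GRCm38.p6, a later build whose coordinates do not apply to the mm9 windows: chr4:55532476-55532725 (minus strand, Klf4), chr3:34649745-34649994 (plus strand, Sox2) and chr6:122707239-122707488 (plus strand, Nanog).
Klf4: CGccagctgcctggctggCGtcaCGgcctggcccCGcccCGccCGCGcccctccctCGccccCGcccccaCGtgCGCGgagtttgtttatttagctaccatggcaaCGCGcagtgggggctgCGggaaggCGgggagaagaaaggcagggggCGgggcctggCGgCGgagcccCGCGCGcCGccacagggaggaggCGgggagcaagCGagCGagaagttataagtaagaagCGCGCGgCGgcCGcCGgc
Sox2: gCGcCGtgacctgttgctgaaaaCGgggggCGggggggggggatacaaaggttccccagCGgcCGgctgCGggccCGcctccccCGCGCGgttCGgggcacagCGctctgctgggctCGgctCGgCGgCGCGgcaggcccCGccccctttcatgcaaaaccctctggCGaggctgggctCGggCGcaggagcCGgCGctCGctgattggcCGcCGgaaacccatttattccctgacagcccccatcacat
Nanog: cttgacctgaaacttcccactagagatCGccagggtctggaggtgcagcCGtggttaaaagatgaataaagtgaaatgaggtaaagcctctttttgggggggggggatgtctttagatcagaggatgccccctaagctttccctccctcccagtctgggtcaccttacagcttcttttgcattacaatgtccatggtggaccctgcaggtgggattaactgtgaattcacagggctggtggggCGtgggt
The Klf4 promoter holds 32 CpGs, a number reached by 4.58% of the 32851 promoters in the table, and the Sox2 promoter holds 27 (reached by 8.56%). The other genes have 2 annotated starts each. Pou5f1 holds 8 CpGs at the first (reached by 43.0%) and 6 at the second, Esrrb 6 (50.4%) and 3, and Nanog 3 (71.0%) and 2, against a median of 6. The octamer core ATGCAAA, searched on both strands, occurs once in the Sox2 and once in the Nanog sequence and in 4.12% of all promoters. The Sox core CATTGT, likewise searched on both strands, occurs once in the Nanog sequence, once at the second start of Pou5f1 and in 10.7% of all. In the same annotation the nearest protein-coding neighbours are H2-Q10 and Tcf19 for Pou5f1, Dppa3 and Slc2a3 for Nanog, Dnajc19 and Atp11b for Sox2, Rad23b and Actl7b for Klf4, and Gpatch2l and Vash1 for Esrrb. Dppa3 is itself a gene of pluripotent and germ cells, and H2-Q10 belongs to the class I histocompatibility genes. No mm9 annotation was used here, so neither the starts nor these neighbours could be placed in the bins described next.

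The 570 bins held 505 distinct reads (reads with their own position and strand) of the library labelled H2ABbd and 2767 of the library labelled 5mC. The latter library was 5.77 times deeper in distinct reads, so levels are given within a library or as a fold over its autosomal mean (taken over bins that are not empty in both libraries). In the plot of windows among autosomal windows, Esrrb and Pou5f1 lay towards the upper end of both libraries and the others nearer the middle.

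**Figure D1:**
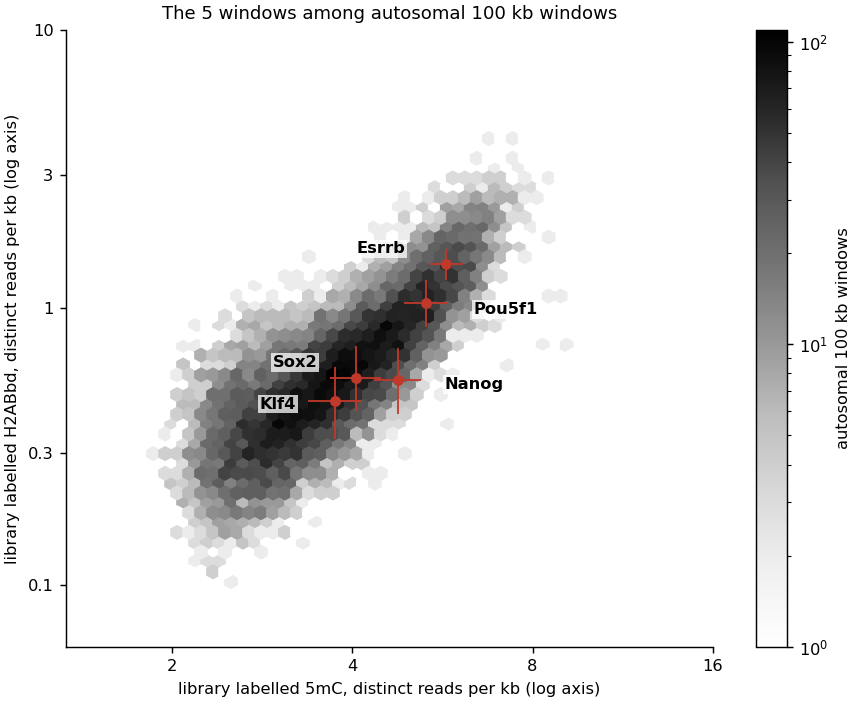
Distinct reads per kb of the library labelled 5mC (x, log axis) and of the library labelled H2ABbd (y, log axis) in 14440 autosomal windows of 100 kb (grey hexagons, number of windows) and in the 5 gene windows (points with 95% Poisson intervals; Esrrb spans 170 kb). Esrrb, at 1.44 and 5.75 reads per kb, lies highest and Klf4, at 0.460 and 3.75, lowest of the 5.

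The Esrrb window was the densest of the 5 in the library labelled H2ABbd, with 244 distinct reads or 1.44 per kb (Poisson interval 1.26 to 1.63). This was 2.31 times the autosomal mean (2.03 to 2.62), and 93.5% of autosomal windows of the same length were less dense. The Pou5f1 window held 104 reads, 1.04 per kb (0.850 to 1.26), or 1.67 times the autosomal mean (1.37 to 2.03), with 83.1% of windows below it. The intervals of Esrrb and Pou5f1 meet at 1.26 reads per kb.

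The other windows lay near or below the mean in that library. Sox2 held 56 reads (0.560 per kb, 0.423 to 0.727), 0.900 times the autosomal mean (0.680 to 1.17). Nanog held 55 reads (0.550 per kb, 0.414 to 0.716), 0.884 times the mean (0.666 to 1.15). Klf4 held 46 reads (0.460 per kb, 0.337 to 0.614), or 0.739 times the mean (0.541 to 0.986). This interval lay below 1, but the window counts 4 bins empty in both libraries, which the mean leaves out. A level below the mean is therefore not established for Klf4. Sox2, Nanog and Klf4 could not be ordered, since their intervals overlap. The median autosomal window of 100 kb held 0.570 reads per kb (5 to 95% range 0.240 to 1.62), so all 5 windows lay within the range of windows of their length.

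The library labelled 5mC gave a similar order with a narrower range. Esrrb held 977 distinct reads, 5.75 per kb (5.39 to 6.12), or 1.62 times the autosomal mean (1.52 to 1.72). Pou5f1 held 532 (5.32 per kb, 4.88 to 5.79), or 1.50 times the mean (1.37 to 1.63). Next came Nanog with 477 reads (4.77 per kb, 4.35 to 5.22), 1.34 times the mean (1.22 to 1.47). Sox2 followed with 406 (4.06 per kb, 3.67 to 4.47), 1.14 times (1.03 to 1.26), and Klf4 with 375 (3.75 per kb, 3.38 to 4.15), 1.06 times (0.951 to 1.17). Each neighbouring pair in this order overlapped in its intervals, while Esrrb and Pou5f1 lay apart from Sox2 and Klf4. All but Klf4 exceeded the autosomal mean beyond counting error, and all 5 lay within the 5 to 95% range of autosomal windows (2.42 to 6.14 reads per kb at 100 kb and 2.50 to 6.06 at 170 kb). Klf4 and Sox2, the genes with the most CpGs in the promoter, had the lowest levels of the 5 in this library, over windows far longer than a promoter. The interval of Sox2 overlapped that of Nanog, the gene with the fewest, and a link to promoter CpGs was not tested.

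In the library labelled H2ABbd the flanks of the genes had levels like those of the windows, as the profiles across the flanks show. The flanks of Esrrb stood at 1.45 reads per kb and those of Pou5f1 at 1.29, against 0.571 for Nanog, 0.539 for Sox2 and 0.429 for Klf4. The high levels of Esrrb and Pou5f1 were therefore shared by at least 500 kb on either side.

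**Figure D2:**
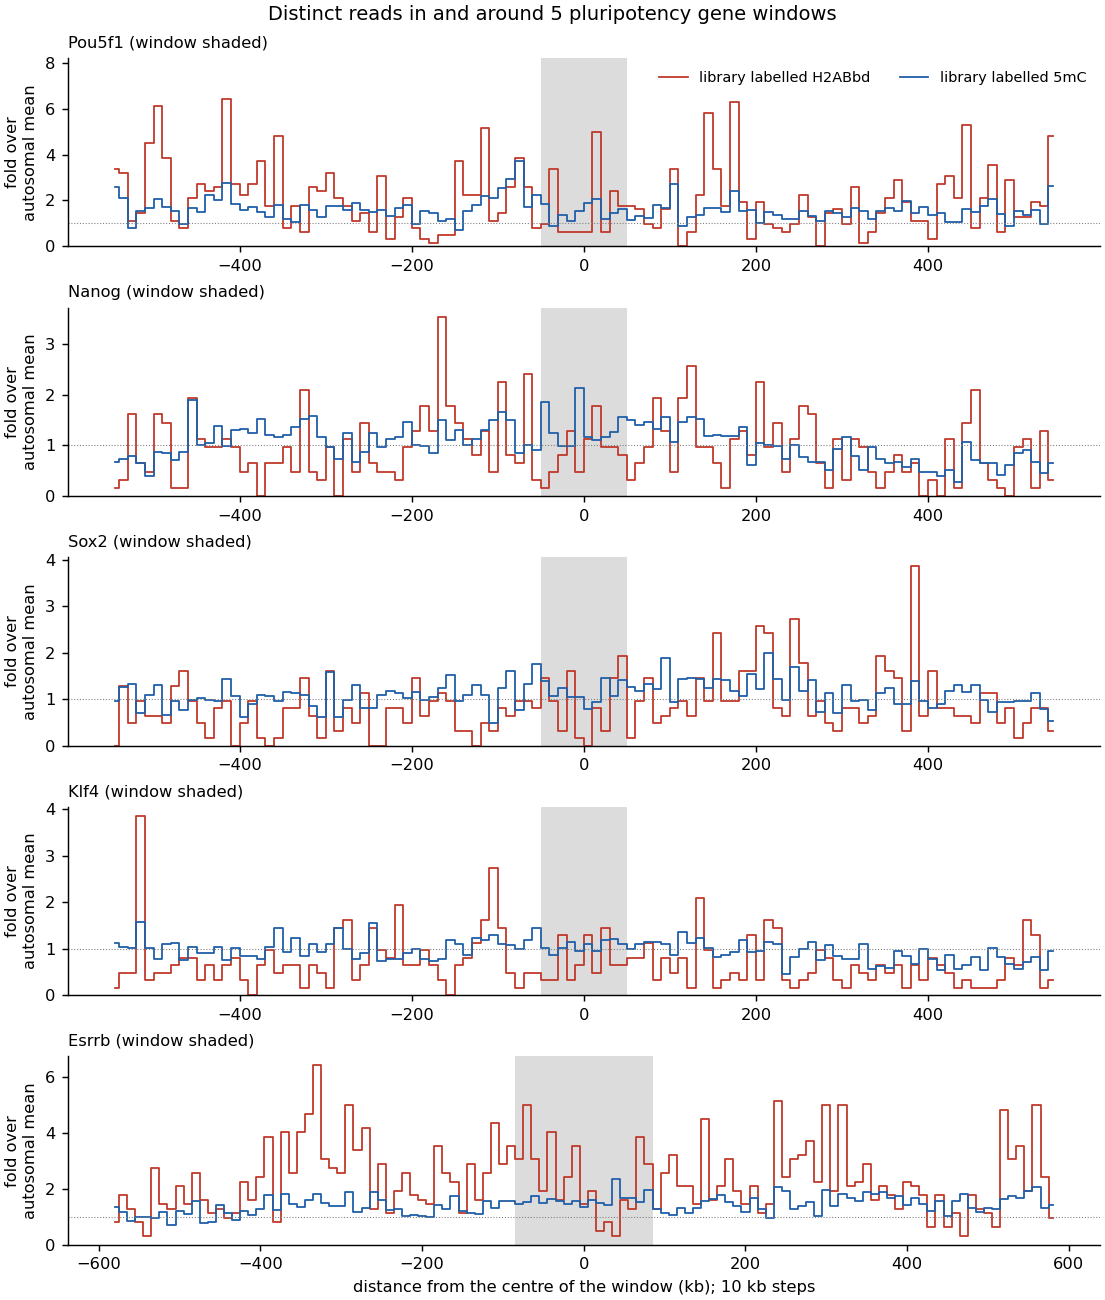
Distinct reads as fold over the autosomal mean of each library (y) in 10 kb steps by distance from the centre of each window (x, kb), for the library labelled H2ABbd (red) and the library labelled 5mC (blue), with the window shaded and the mean at the dotted line. The red line is above 1 over much of the Esrrb panel, inside the window and outside it. In the Pou5f1 panel it is above 1 over much of the flanks. Inside the Pou5f1 window it is below 1 in most steps, several at 0.643, with peaks of 3.38 and 4.98.

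Relative to its flanks, the Esrrb window stood at 0.991 in the library labelled H2ABbd (exact conditional interval 0.861 to 1.14), Sox2 at 1.04 (0.774 to 1.37), Klf4 at 1.07 (0.773 to 1.46) and Nanog at 0.963 (0.717 to 1.27). None of these 4 was distinguishable from its flanks at this depth, and the interval for Klf4 allows a difference of up to 1.46-fold. The Pou5f1 window was lower than its flanks, at 0.808 (0.655 to 0.987). This interval excludes 1, while among 12655 autosomal windows the same ratio ranged from 0.489 to 1.79 (5 to 95%), with 31.6% of windows below Pou5f1. Against the right flank alone the value for Pou5f1 was 0.890 (0.716 to 1.10) and against the left 0.740 (0.596 to 0.910).

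The Nanog window stood above its flanks in the library labelled 5mC, at 1.35 (1.22 to 1.48). It held 4.77 reads per kb against 3.93 in the left flank and 3.16 in the right. Of the autosomal windows, 96.6% had a lower ratio (5 to 95% range 0.775 to 1.30), so Nanog lay just outside that range. In the Nanog flanks 60 of the 1000 bins were empty in both libraries, against 1 of 100 in the window. With such bins left out of window and flanks, an alternative added after seeing the data, the ratio was 1.28 (1.16 to 1.41). It was 1.20 with flanks of 250 kb and 1.63 with flanks of 1000 kb.

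Esrrb was also above its flanks in that library, at 1.16 (1.08 to 1.24), which lay within the range of autosomal windows of 170 kb (0.791 to 1.28). This rested on the left flank (1.26, 1.17 to 1.36), while against the right flank the value was 1.07 (0.995 to 1.15). Klf4 stood at 1.11 (0.997 to 1.24), Sox2 at 1.03 (0.931 to 1.15) and Pou5f1 at 0.931 (0.850 to 1.02), all with intervals that include 1.

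**Figure D3:**
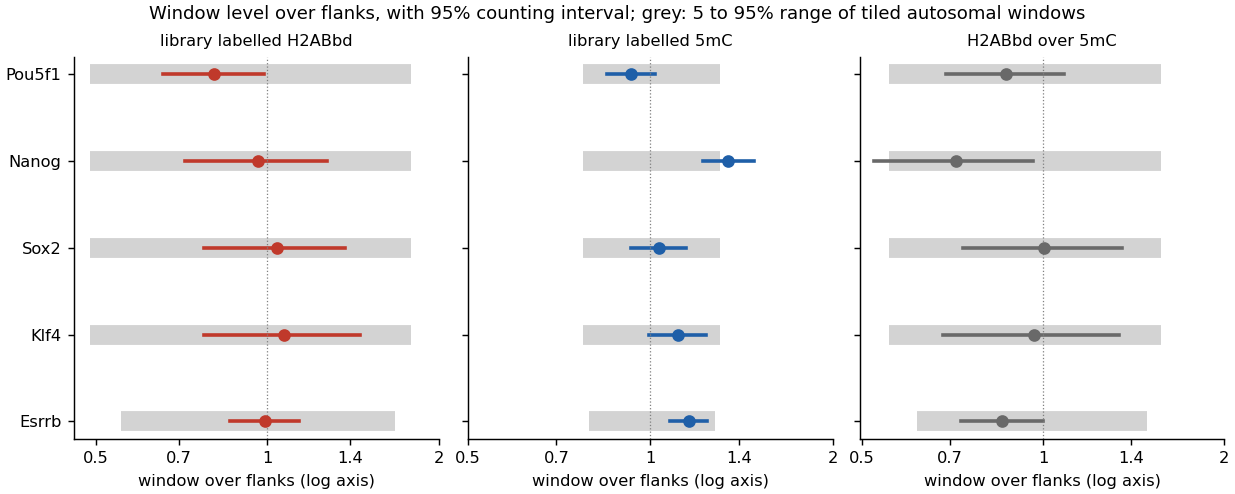
Level of each window over its flanks of 500 kb on each side (x, log axis) for each library and for the ratio of the libraries (panels), with 95% counting intervals (lines) and the 5 to 95% range of autosomal windows of the same length (grey). Of the 15 points only Nanog in the library labelled 5mC, at 1.35, lies outside the grey range.

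Put against each other per distinct read, the libraries gave a H2ABbd over 5mC ratio of 1.44 in the Esrrb window (1.25 to 1.66), 1.13 in Pou5f1 (0.905 to 1.39), 0.795 in Sox2 (0.590 to 1.05), 0.707 in Klf4 (0.509 to 0.962) and 0.665 in Nanog (0.493 to 0.880). The median autosomal window of 100 kb had 0.887 (0.472 to 1.73 for 5 to 95%) and that of 170 kb 0.901 (0.531 to 1.63). The ratio in Esrrb was higher than in 90.7% of windows of its length, and its flanks had 1.68 (1.59 to 1.78). Were the labels exchanged, as the file names have it, the ratio in Esrrb would be 0.694 (0.603 to 0.802), with 9.28% of windows below it, and the order of the 5 genes would be turned. Relative to its own flanks the ratio of the libraries was 0.716 in the Nanog window (0.524 to 0.963) and 0.856 in the Esrrb window (0.732 to 0.998). It was 0.868 in Pou5f1 (0.691 to 1.08), 0.964 in Klf4 (0.683 to 1.34) and 1.01 in Sox2 (0.736 to 1.35). All 5 lay within the range of autosomal windows (0.556 to 1.57 at 100 kb and 0.618 to 1.49 at 170 kb).

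Esrrb lies in a part of chromosome 12 where the library labelled H2ABbd is dense. Over the rest of the stretch from 80 to 114.5 Mb it held 1.24 reads per kb, and the Esrrb window held 1.15 times that (1.01 to 1.31). With empty bins left out the value was 1.07 (0.944 to 1.22). The library labelled 5mC held 3.78 reads per kb there, and the window 1.52 times that (1.43 to 1.62). Among the 148 windows of 170 kb in this stretch the Esrrb window was denser than 55.4% in the library labelled H2ABbd and denser than 87.8% in the library labelled 5mC. The ratio of the libraries in the window was 0.759 of that in the stretch (0.657 to 0.875). Of the 148 windows kept, 25.0% had a lower ratio than Esrrb (75% with the labels exchanged). The most H2ABbd-rich part of the stretch was its far end, at 4.92 reads per kb in the last 500 kb step.

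**Figure D4:**
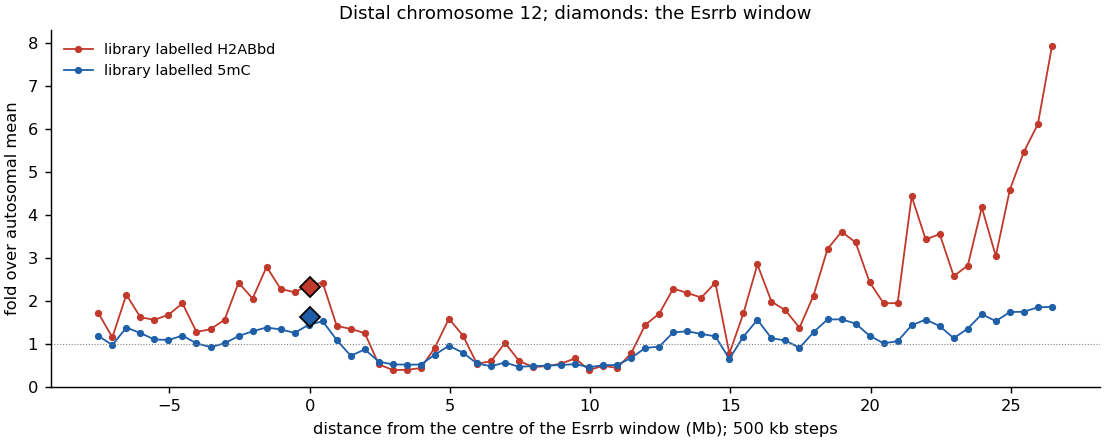
Fold over the autosomal mean (y) in 500 kb steps along distal chromosome 12 by distance from the centre of the Esrrb window (x, Mb), for the library labelled H2ABbd (red) and the library labelled 5mC (blue), with the Esrrb window itself as diamonds at 2.31 and 1.62. Both lines fall below 1 over several Mb to the right of the window, and the red line rises towards the end.

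Within the windows the evenness of read placement differed between libraries and genes. Random placement at a uniform rate gives a variance of about 1 times the mean over 1 kb bins. In the library labelled H2ABbd it was 3.24 in Pou5f1, 2.72 in Sox2, 2.14 in Esrrb, 1.64 in Klf4 and 1.41 in Nanog. For the library labelled 5mC the values were 1.10 in Pou5f1, 1.34 in Klf4, 1.56 in Esrrb, 1.64 in Sox2 and 2.21 in Nanog. Of the 5 windows, Pou5f1 had the highest value in the first library and the lowest in the second, and Nanog the reverse. In the flanks, in the order Pou5f1, Sox2, Esrrb, Klf4 and Nanog, the first library had 3.18, 1.98, 2.54, 1.91 and 2.27. The second had 2.16, 1.72, 1.63, 1.45 and 1.77. The measure also moves with depth, which differs between the libraries and between windows, so these values are a description.

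Enriched bins were those at or above 4 times their chromosome's mean whose Poisson tail, adjusted over all bins, was 0.01 or less. Of the 570 bins, 15 were called in the library labelled H2ABbd, or 2.63% (Clopper-Pearson 1.48 to 4.30%), against 1.18% of all bins and 2.16% of the flank bins (1.78 to 2.60%). By gene, 7 of the 170 bins of Esrrb were called, 6 of 100 in Pou5f1, 2 of 100 in Sox2 and none in Nanog or Klf4. The flanks of the genes showed 3.90% (Esrrb), 4.50% (Pou5f1), 0.700% (Sox2), 1.20% (Nanog) and 0.500% (Klf4). Esrrb, at 4.12% (7 of 170), and Pou5f1, at 6 of 100, thus lay near the share in their own flanks. Held against the mean of the window and its flanks in place of the chromosome, 6 bins were called. A bin of these chromosomes needed 6 reads to be called. At this depth a bin raised 8-fold would reach that in 25.4% of cases on the chromosome of Nanog and in 46.6% on that of Klf4, so an enriched bin there could have gone uncalled.

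In the Pou5f1 window the reads of the library labelled H2ABbd formed 3 groups. Clumping of this kind was also seen in its flanks. There, 10 kb steps reached 6.43 times the autosomal mean at -415 kb from the window's centre and 0 at 115 kb. The fullest step of the window stood at 4.98. The block chr17:35660001-35670000 held 31 of the 104 reads, 2.41 times the flank mean (1.64 to 3.42), and includes chr17:35665001-35666000 with 9 reads (12.3-fold over the chromosome, 5.61 to 23.3) and chr17:35662001-35663000 with 7. The block chr17:35610001-35620000 held 21, with 8 and 7 reads in the adjoining bins from 35615001 to 35617000. The remaining called bins, from 35689001 (7 reads) and 35692001 (6 reads), lay near the right end. In between, the 10 kb blocks from 35620001 to 35660000 held 4 reads each, 0.311 times the flank mean (0.0847 to 0.796), and 7 bins in a row from 35636001 to 35643000 held none.

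The library labelled 5mC followed these groups in Pou5f1 only in part. At the bin with 9 H2ABbd reads it held 7 (1.75-fold over the chromosome, 0.704 to 3.61), and at the bin from 35615001, with 8 H2ABbd reads, it held 2 (0.500-fold, 0.0606 to 1.81). Its lowest block was chr17:35610001-35620000, with 32 reads (0.560 times the flanks, 0.383 to 0.790), a block rich in the other library. Its highest was chr17:35660001-35670000, with 73 reads (1.28, 1.00 to 1.61), the block that was fullest in the other library too. No bin of Pou5f1 was called in this library, and its fullest bin, from 35692001, held 11 reads.

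**Figure D5:**
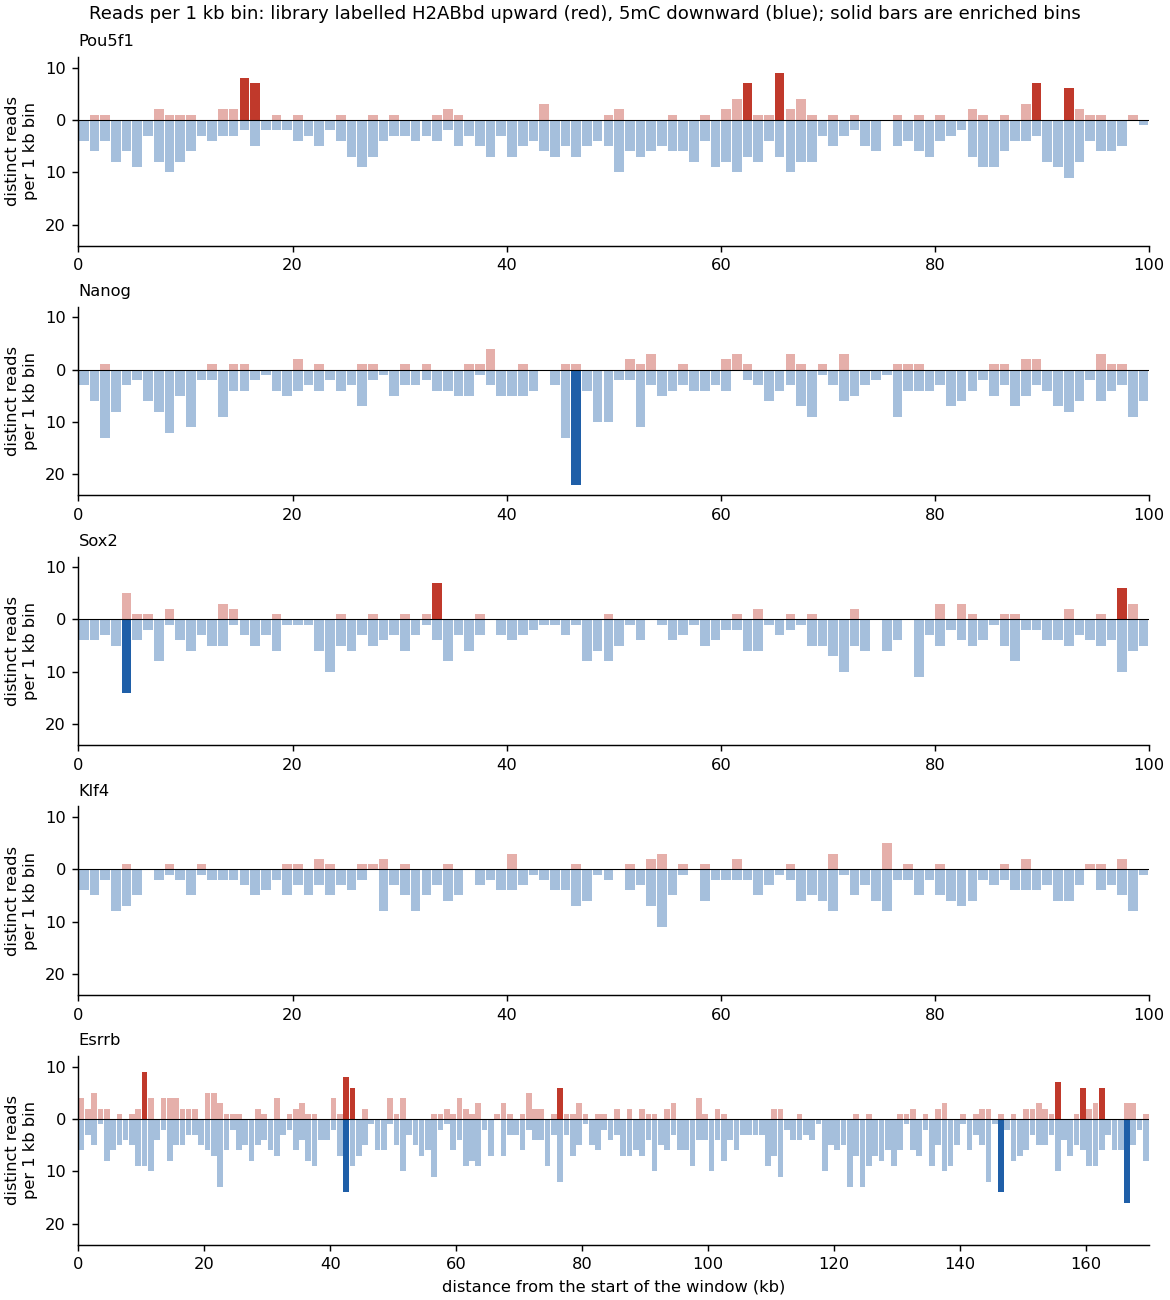
Distinct reads per 1 kb bin (y) by distance from the start of each window (x, kb), with the library labelled H2ABbd upward in red and the library labelled 5mC downward in blue, and enriched bins in solid colour. The tallest blue bar is the Nanog bin with 22 reads, and the solid red bars are the 15 enriched bins of Pou5f1, Sox2 and Esrrb.

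Nanog showed the opposite arrangement, with a peak in the library labelled 5mC. The bin chr6:122656001-122657000 held 22 distinct reads of that library, 6.49 times the chromosome mean (4.07 to 9.83, adjusted Poisson tail 1.28e-08), 16 on the plus and 6 on the minus strand, with no position repeated. The bin before it held 13 reads and the bin after it 4. The library labelled H2ABbd held 1 read in the same bin and 1 and 0 in the bins beside it. The block chr6:122650001-122660000 around it held 76 reads, 2.14 times the flank mean (1.69 to 2.68), and 3 H2ABbd reads, 0.525 times (0.108 to 1.54). A second full block lay at the left edge of the window, chr6:122610001-122620000, with 66 reads (1.86 times, 1.44 to 2.37) and 1 H2ABbd read.

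A further block above the flanks, chr6:122700001-122710000, held 55 reads (1.55 times, 1.17 to 2.02) and 5 H2ABbd reads. The lowest blocks of the library labelled 5mC, from 122630001 to 122650000, held 35 reads each, at 0.987 times the flanks (0.688 to 1.37). The fullest block of the library labelled H2ABbd was chr6:122670001-122680000, with 11 reads (1.93 times, 0.962 to 3.45), and its fullest bin, from 122648001, held 4. Without the fullest bin of each library the Nanog window still stood at 1.30 times its flanks (1.18 to 1.44) in the library labelled 5mC, an alternative added after seeing the data.

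The Sox2 window had its middle nearly free of H2ABbd reads, and such gaps also occurred in its left flank. Steps of 10 kb with no H2ABbd read lay there at -405, -245 and -235 kb from the window's centre, among others. The block chr3:34550001-34560000 held 0 reads of the library labelled H2ABbd, which allows a level of up to 0.557 times the flank mean (3 counts; the two-sided interval used for the other blocks reaches 0.684), and the block before it held 1. The longest run without a read was 11 bins, from 34538001 to 34549000. The library labelled 5mC was also at its lowest in the block from 34550001, with 28 reads (0.713 times the flanks, 0.474 to 1.03), an interval that includes 1. Towards the edges the levels were higher, with 12 H2ABbd reads in chr3:34590001-34600000 (2.23 times, 1.15 to 3.89) and 52 reads of the library labelled 5mC in chr3:34570001-34580000 (1.32 times, 0.989 to 1.74).

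Enriched bins of Sox2 lay away from that middle. Those of the library labelled H2ABbd were chr3:34533001-34534000 with 7 reads (14.7-fold over the chromosome, 5.91 to 30.3) and chr3:34597001-34598000 with 6 (12.6-fold, 4.62 to 27.4). In the library labelled 5mC the bin chr3:34504001-34505000 held 14 reads (4.56-fold, 2.50 to 7.66). With 5 H2ABbd reads (10.5-fold, 3.41 to 24.5) this bin just missed a call in the other library, at an adjusted tail of 0.0112.

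Klf4 was the single window of the 5 with no bin called in either library. Its fullest bins held 5 H2ABbd reads (from 55565001, with 8 reads of the other library) and 11 reads of the library labelled 5mC (from 55544001, with 3 H2ABbd reads). Its 10 kb blocks held 2 to 9 reads of the library labelled H2ABbd and 31 to 43 of the library labelled 5mC. Relative to the flanks the blocks of the latter thus ranged from 0.919 to 1.27, the narrowest range of the 4 windows of 100 kb.

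Esrrb had enriched bins of both libraries, and the single bin of the 570 called in both. This was chr12:87742001-87743000, with 8 H2ABbd reads (10.9-fold over the chromosome, 4.70 to 21.5) and 14 reads of the library labelled 5mC (4.07-fold, 2.22 to 6.82). Of all bins 0.122% were called in both. With no shift of the reads, with 2 kb bins or at 8-fold or more the number called in both was 0. The next bin, from 87743001, was called in the library labelled H2ABbd with 6 reads. The other H2ABbd bins were those from 87710001 (9 reads, 12.2-fold, 5.60 to 23.3), 87776001, 87855001, 87859001 and 87862001, with 6 or 7 reads. In the library labelled 5mC the bins from 87866001 (16 reads, 4.65-fold, 2.66 to 7.54) and 87846001 (14 reads) were called, where the library labelled H2ABbd held 3 and 1.

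The Esrrb window also held a stretch poor in H2ABbd. Its lowest 10 kb step, at 0.322 times the autosomal mean, was matched in the flanks at -540 and 470 kb from the centre. The 10 kb blocks from 87800001 to 87830000 held 3, 5 and 2 reads, or 0.207, 0.345 and 0.138 times the flank mean, the last with an interval of 0.0167 to 0.499. In this last block, chr12:87820001-87830000, the library labelled 5mC was at its highest of the window, with 83 reads (1.67 times the flanks, 1.33 to 2.07). The block with most H2ABbd reads was chr12:87710001-87720000, with 31 (2.14 times, 1.45 to 3.04), where the library labelled 5mC held 54 (1.09 times, 0.817 to 1.42). The lowest block of that library, chr12:87780001-87790000, held 48 reads (0.967, 0.713 to 1.28), and its second highest, chr12:87860001-87870000, held 70 (1.41, 1.10 to 1.78).

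A total of 5 of the 570 bins were called in the library labelled 5mC, or 0.877% (0.285 to 2.04%), against 0.508% of all bins and 0.840% of flank bins (0.606 to 1.13%). These were 3 in Esrrb and 1 each in Nanog and Sox2, at 14 to 22 reads. Against the mean of window and flanks, 1 bin was called. Pooled over the windows, 50.0% of the 570 bins held 5 or more reads, against 26.7% of autosomal bins with a read in either library. For the library labelled H2ABbd 20.0% held 2 or more, against 11.8%. The pooled shares mix windows of unlike level. In the library labelled 5mC these ran from 1.62 times the autosomal mean (Esrrb) to 1.06 (Klf4). In the library labelled H2ABbd Sox2, Nanog and Klf4 stood at 0.900, 0.884 and 0.739 times. The 570 bins include 10 empty in both libraries, and no share for the flanks is given.

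Bins without a read were common in the sparser library. It left 72 of 100 bins of Sox2 empty, 70 of Klf4, 63 of Nanog, 53 of Pou5f1 and 67 of the 170 of Esrrb. In the flanks the share was 67.4% for Sox2, 71.9% for Klf4, 66.5% for Nanog, 47.7% for Pou5f1 and 38.4% for Esrrb, each within the interval of its window. Leaving out the bins empty in both libraries, the windows had 70.8% (Sox2), 68.8% (Klf4), 62.6% (Nanog), 52.5% (Pou5f1) and 39.4% (Esrrb) empty in it, against 67.5% of autosomal bins. The library labelled 5mC left 15 of the 570 bins empty, at most 6 in a window (Klf4) and never 2 in a row. Thinned to the distinct reads of the other library it left 248 empty, against 325 in the library labelled H2ABbd.

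In each window, bins with a H2ABbd read held slightly more reads of the library labelled 5mC than bins without one. Only in Sox2 did the interval of the ratio lie above 1. The ratio was 1.32 in Sox2 (1.07 to 1.63), 1.21 in Klf4 (0.969 to 1.50), 1.14 in Pou5f1 (0.955 to 1.35), 1.07 in Esrrb (0.936 to 1.22) and 1.05 in Nanog (0.868 to 1.27). In the flanks it lay between 1.26 and 1.32 for all 5 genes, with intervals above 1. The correlation of log2(RPM + 0.1) across bins was weak: 0.236 in Sox2, 0.137 in Klf4, 0.134 in Pou5f1, 0.0796 in Esrrb and -0.0590 in Nanog, over 100 bins each (170 in Esrrb) that share both libraries' depth.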

How the data were processed

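The members and lists were chosen with earlier results of these data known. Per the submitters' processing notes, the authors checked reads with FastQC and aligned them to mm9 with Bowtie. The deposited files give the position and strand of each 42 bp read, and the deposited score column holds 255 throughout and was not used. How reads with several possible positions were treated is not given in the sources used here. In total, the libraries held 3503839 (H2ABbd) and 9266471 (5mC) reads at 1397289 and 8056333 distinct positions. Lines with broken separators (8 and 1) were left out. Each distinct position was counted once, moved 100 bp towards its 3′ end and placed in bins of 1 kb (autosomes 1 to 19, and X). RPM values and folds were computed from these counts. Poisson tails were adjusted by Benjamini-Hochberg over all bins and served as a filter within 1 library. Intervals are exact (Poisson, Clopper-Pearson, conditional for ratios). The PCR reads carry no molecular identifiers, so they are not independent molecules. Autosomal windows were tiled and kept where 90% of bins held a read. Promoters come from RefSeq by symbol (5 of 5 matched). Named are all 5 windows, their enriched bins, fullest bins, longest empty runs and highest and lowest 10 kb blocks. The calling and interval steps were run on simulated Poisson counts. These counts follow the model that the steps assume, so the run checks the computation alone. It does not test the fit to these data, where the variance in the windows exceeded the mean. Python 3.11.15, numpy 2.4.6, pandas 2.3.3, scipy 1.17.1 and matplotlib 3.10.9 were used.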

Additional observations from a re-analysis of the deposited data

How the results depend on the processing

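Of 198 recomputed values for 23 results, 166 stayed within the interval of the reported value or within 1.5 times a reported count. Some of these could not move. Thinning the library labelled 5mC leaves the window ratios and empty bins of the library labelled H2ABbd as they are. Leaving out bins empty in both libraries leaves the ratio of the libraries as it is. Such values count among the 166 and in the tallies of alternatives below. Alternatives changed read counting, shift, depth, flanks, bin size and thresholds. The alternatives that left out empty bins or the fullest bin of a window were chosen after seeing the data. The value for Nanog in the library labelled 5mC kept an interval above 1 under all 10 alternatives, but its size followed the flank: 1.20 with flanks of 250 kb, 1.63 with 1000 kb, 1.21 with the left flank and 1.51 with the right. With 1000 kb Sox2 stood at 1.15 (1.04 to 1.27) in that library. With 250 kb Esrrb stood at 0.854 (0.738 to 0.986) in the library labelled H2ABbd. Both intervals exclude 1, unlike those of the reported values. In the library labelled 5mC the interval for Klf4 excluded 1 in 3 of 10 alternatives (all reads kept, 1000 kb, right flank). For Pou5f1 there it did so in 1 (left flank). Esrrb in the library labelled 5mC stood at 1.26 (left) and 1.07 (right). With that library thinned, Sox2 stood at 1.27, Esrrb at 1.05 and Esrrb over distal chromosome 12 at 1.38, which was 1.42 with empty bins left out. The value for Pou5f1 in the library labelled H2ABbd had an interval including 1 in 3 of 10 alternatives, those with 250 kb, 1000 kb and the right flank. The ratio of the libraries over flanks did so in 2 of 10 for Nanog (thinned, left flank) and 5 of 10 for Esrrb. For Esrrb over distal chromosome 12, the ratio of the libraries was 0.835 (0.678 to 1.03) with the library labelled 5mC thinned. That interval includes 1, unlike the reported one.

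Counts of enriched bins depended most on the setting. For the library labelled H2ABbd, 15 bins became 0 at an adjusted 1e-05, 6 with the mean of window and flanks and 5 with the other library thinned. For the library labelled 5mC, 5 bins became 1 with 2 kb bins, at an adjusted 1e-05 or with the mean of window and flanks, 0 at 8-fold or thinned, and 12 with the mean over all bins of the chromosome. The 1 bin called in both became 2 with 500 bp bins or the mean over all bins of the chromosome, and 0 with 2 kb bins, no shift, 8-fold, an adjusted 1e-05, the mean of window and flanks or thinning. Empty bins numbered 103 (H2ABbd) and 0 (5mC) with 2 kb bins, and 248 (5mC) when thinned. No paired analysis was possible because each group has 1 library. With 46 to 244 H2ABbd reads per window, a difference from the flanks of 1.1-fold could not be seen.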

Other observations

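The read positions within enriched bins varied in how far they spread. In the 15 bins of the library labelled H2ABbd the moved read positions spanned a median of 304 bp, from 76 bp at chr12:87859001-87860000 (Esrrb, 6 reads) to 902 bp. Short spans with reads on both strands were also seen at chr3:34533001-34534000 (Sox2, 89 bp, 4 plus and 3 minus), chr12:87742001-87743000 (Esrrb, 111 bp, 5 and 3) and chr12:87710001-87711000 (Esrrb, 158 bp, 5 and 4). The 19260 bins of the genome called with 6 to 9 reads had a median of 481 bp (5 to 95% range 130 to 899). In the 5 bins of the library labelled 5mC the span was 733 to 929 bp, against a median of 832 bp for 8162 called bins with 14 to 22 reads. More reads give a longer span, so the libraries cannot be compared by it. The median over the 15 bins came from a measure chosen after the calls were seen.

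Reads that repeated a position were rarer in the windows than in the libraries. In the library labelled H2ABbd 21.5% of the 643 reads in the windows did so, against 60.1% of all its reads, and by window the share ran from 15.4% (Nanog) to 24.6% (Klf4), against 15.2 to 21.0% in the flanks. In the library labelled 5mC it was 4.78% against 13.1%. No position in the windows held more than 5 reads. Of the 505 distinct positions of the library labelled H2ABbd 2, both in Esrrb, were also positions of the other library. The share of reads on the plus strand included 50% in its interval in 9 of 10 windows and libraries. The exception was Nanog in the library labelled 5mC, at 54.7% (50.1 to 59.2%).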
